A study of Mus musculus with 7 samples.

Results

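The 10 genes described here encode the MHC class I heavy chains H2-K1, H2-D1 and H2-T23, their light chain B2m, the peptide transporter Tap1 and Tap2, the loading factors Tapbp and Tapbpl, the trimming peptidase Erap1 and the class I transactivator Nlrc5. They were chosen by name, as the rows of a table of 38026 genes whose name equals one of these 10 symbols, and each symbol had 1 row. The 10 symbols were picked with earlier results of these data known, so the share of them called is no independent test. The table holds bulk RNA-seq of 7 subcutaneous tumors, harvested 2 weeks after inoculation of untreated C57BL/6 mice with KPC cells, a pancreatic ductal adenocarcinoma (PDA) line from a mouse tumor whose mutant alleles were recombined by Pdx1-Cre, which acts in pancreatic progenitors. The cells carried lentiviral SpCas9 with a scrambled guide RNA (sgScramble, control tumors 1 to 4, n = 4) or with a guide RNA against Krt19 (sgKrt19, tumors 5, 6 and 8, n = 3). Krt19 encodes keratin-19, which in the study's model binds the chemokine CXCL12 at the surface of carcinoma cells. The comparison asks which transcripts differ between tumors of edited and of control cells. The mice were bought at 6 weeks of age and kept for 2 weeks before use, and the labels do not give their sex. They also do not say which Krt19 guide was used, whether the edited cells were 1 clone or many, or whether each tumor came from its own mouse, so p-values measure the spread between these 7 samples.

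MHC class I molecules show peptides from proteins made inside the cell to CD8 T cells. Peptides cut by the proteasome enter the endoplasmic reticulum through the Tap1-Tap2 transporter, are shortened there by Erap1, and are loaded with the help of tapasin (Tapbp) onto heavy chains that have paired with B2m. Almost every nucleated cell makes class I molecules, and interferon gamma from lymphocytes raises the transcription of the heavy chains, of B2m and of the loading genes.

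Values below are normalized read counts, which the authors obtained by scaling the reads of each library with a size factor, and ± gives the SD among tumors of 1 group. Depth was 40781199 to 44972100 reads per library. Krt19, the targeted gene, averaged 23053 ± 4392 in sgScramble tumors and 2012 ± 434 in sgKrt19 tumors (log2 fold change −3.52, SE 0.183, limma adjusted p = 1.74e-05), with no overlap. The tumors are mixtures, and in a bulk sample fewer cells of a type cannot be told apart from less RNA per cell. Several cell type markers moved with the group. The summed value of 6 leukocyte markers was 10054 to 14038 in sgScramble tumors and 17128 to 23299 in sgKrt19 tumors, and all 6 were higher. All 6 T cell markers were higher (sums of 338 to 629 against 1701 to 3242), as were 2 of 4 NK cell markers (177 to 260 against 703 to 835), all 5 neutrophil markers (364 to 541 against 1051 to 1156) and all 6 skeletal muscle markers (50.4 to 1970, highest in sgScramble 3, against 16881 to 24040). The 2 NK cell markers called were Eomes and Klrd1, while Ncr1 (log2 fold change 0.81) and Klrb1c did not pass. Klrd1 is also counted among the lymphocyte receptors of class I below. Of the 6 epithelial markers, which stand for the cancer cells, Krt8, Krt18 and Cdh1 were higher, while Krt7 (log2 fold change −1.03, limma adjusted p = 0.115), Cldn4 (−1.23, adjusted p = 0.149) and Epcam (0.06, adjusted p = 0.943) did not pass. The sum of all 6, most of it Krt8 and Krt18, was 117297 to 158537 against 237947 to 247293, and Epcam read 322 to 1588 over the 7 tumors. Of the other lists, 2 of 6 macrophage markers were higher and 1 lower, and 2 of 5 tested dendritic cell markers and 3 of 5 endothelial markers were higher. None of 6 fibroblast, 4 adipocyte, 2 tested keratinocyte and 1 tested B cell markers passed. For comparison, 17.9% of all tested genes were called higher and 16.0% lower. Krt1, which marks skin keratinocytes, was at or under 3 reads in both groups. Which of these cells supplied the class I transcripts was not tested.

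All 10 genes were higher in sgKrt19 tumors. Each passed the test (limma on log2 of the value plus 1, Benjamini-Hochberg adjusted p under 0.05 over 21322 genes), where 17.9% of all tested genes were called higher. The log2 fold changes ran from 0.64 for Erap1 to 1.88 for Tap1 with a median of 1.29, against 0.0072 over all tested genes. For 9 of the 10, every sgKrt19 tumor lay above every sgScramble tumor, as was the case for 21.7% of tested genes, and Nlrc5 was the exception. A stricter test for a change above 1.5-fold called 6 of the 10, the 3 heavy chains, Tap1, Tap2 and Tapbp, against 3.41% of tested genes. B2m (treat adjusted p = 0.0772), Tapbpl (0.187), Erap1 (1) and Nlrc5 (0.679) did not pass that test. Tumor sgScramble 3 had the lowest value of its group for all 10 genes, against 24.4% of tested genes. Without that tumor all 10 were still called, with a median log2 fold change of 1.13.

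**Figure D1:**
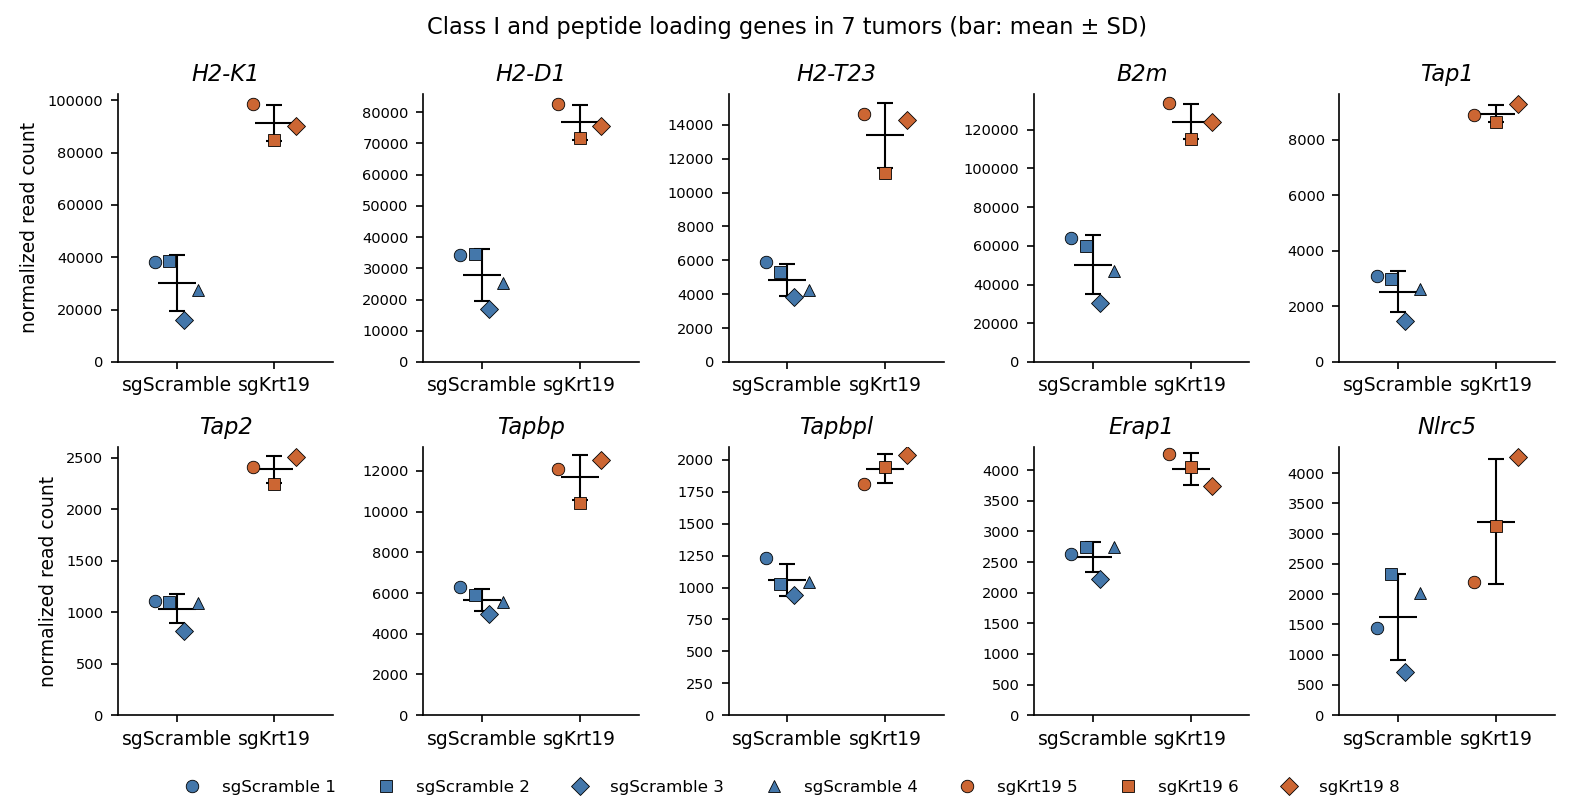
Normalized read count (y axis, linear from 0, with a scale of its own in each panel) of the 10 genes in 4 sgScramble tumors (blue) and 3 sgKrt19 tumors (orange); each symbol is 1 tumor, and bars give the mean and SD. The groups are apart in every panel but that of Nlrc5, where sgKrt19 5 at 2205 lies below sgScramble 2 at 2326, and the diamond of sgScramble 3 is the lowest blue point throughout.

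H2-K1 and H2-D1 encode the classical heavy chains that present peptides to CD8 T cells. H2-K1 (chromosome 17, 33996017 to 34000347, minus strand, GRCm38) read 38383, 38763, 16209 and 27342 in sgScramble tumors 1 to 4, and 98492, 84820 and 90282 in sgKrt19 tumors 5, 6 and 8. The lowest sgKrt19 tumor was thus above the highest control. Its means were 30174 ± 10711 and 91198 ± 6881, a ratio of 3.02, or 1.68 on the log2 scale (SE 0.279, 95% interval 1.06 to 2.30, limma adjusted p = 0.00170). H2-D1 (chromosome 17, 35262730 to 35267499, plus strand) followed the same order of control tumors, with 34397, 34710, 16938 and 25350, and read 82728, 71862 and 75678 in sgKrt19 tumors. Its mean rose from 27849 ± 8470 to 76756 ± 5512, which is 1.52 on the log2 scale (SE 0.240, interval 0.98 to 2.05, limma adjusted p = 0.00131). Of the 76-base stretches of their transcripts, the length of 1 read, 1.02% for H2-K1 and 6.15% for H2-D1 also occur in other genes, mostly of the class I family, and how such reads were counted is not given in the sources used here.

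H2-T23 encodes Qa-1, a nonclassical heavy chain that presents leader peptides of other class I molecules to the CD94-NKG2 receptors of NK and T cells. The gene (chromosome 17, 36029773 to 36032855, minus strand) read 5899, 5316, 3830 and 4249 in sgScramble tumors and 14646, 11184 and 14293 in sgKrt19 tumors. The lowest sgKrt19 value came from tumor 6 and was still above every control. The mean rose from 4824 ± 951 to 13374 ± 1905 (log2 fold change 1.48, SE 0.167, interval 1.11 to 1.85, limma adjusted p = 0.000215). Here 12.8% of the 76-base stretches are shared with other genes, and reads from these cannot be assigned with certainty.

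B2m, the invariant light chain, has no such stretch in common with another gene. On chromosome 2 (122147686 to 122153083, plus strand), outside the MHC, it read 64244, 59886, 30496 and 46763 in sgScramble tumors and 133614, 115142 and 124037 in sgKrt19 tumors. Again sgScramble 3 was lowest and the groups were apart. The means were 50347 ± 15177 and 124264 ± 9238 (log2 fold change 1.36, SE 0.250, interval 0.80 to 1.91, limma adjusted p = 0.00289). H2-K1, H2-D1 and B2m together took 0.328%, 0.331%, 0.159% and 0.261% of all reads in the control tumors, and 0.619%, 0.614% and 0.650% in the sgKrt19 tumors.

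Whether the chains moved by equal amounts was examined with the log2 ratio of 2 genes within a tumor, where library scaling cancels. In all, 10 ratios were tested by a two-sided exact permutation test over the 35 splits of the tumors, which cannot give a p below 0.0571. The log2 ratio of H2-K1 to B2m was −0.76 ± 0.117 in sgScramble and −0.45 ± 0.010 in sgKrt19 tumors, a difference of 0.32 without overlap (exact p = 0.0571, adjusted over the 10 ratios p = 0.114). H2-D1 to B2m differed by 0.16 and H2-K1 to H2-D1 by 0.16, both without overlap and with the same exact p of 0.0571. H2-T23 to B2m differed by 0.12, and its groups overlapped (exact p = 0.514). That last difference was 0.07 to 0.24 when each tumor was left out, highest without sgScramble 3 and lowest without sgKrt19 8. Both classical heavy chains thus had a higher ratio to B2m in every sgKrt19 tumor than in any control, a difference that did not pass 0.05 in this design.

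Promoter sequence was read for the genes that RefSeq (GRCm38.p6) places in the table used here, which were 7 of the 10. Tap2, Tapbpl and Nlrc5 had no entry. Class I promoters are known for an NF-kB element, an interferon response element bound by IRF factors, and an X and Y box module to which RFX, CREB-type and NF-Y factors bind with Nlrc5. In the 250 bases before each transcript start, 4 motifs were searched on both strands: GAAA, 2 free bases and GAAA again for IRF factors, GGG, 2 free bases, TT, 1 free base and CC for NF-kB, TGACG for the core of the X2 box, and CCAAT for the Y box. None of the matches in the 7 genes overlapped another. The NF-kB letters were found in H2-K1, H2-D1 and B2m (4% of 27025 promoters hold them), the IRF letters in H2-T23 and B2m (3.04%), the X2 core in H2-K1, H2-D1, B2m and Tap1 (17.9%), and the Y box in 6 of the 7 (34.5%). Erap1 held none of them in this window, and Tapbp held the Y box letters alone. By the GENCODE bounds, the windows of Erap1 (chr13:74639603-74639852), Tapbp (chr17:33919228-33919477) and H2-D1 lie wholly inside the gene, past its outermost start. Both matches of H2-T23 also lie inside its gene. For these 4 genes the matches, or their absence, therefore describe the RefSeq start used and not the bases upstream of the whole gene. Elements that depart from these letters or spacings were not searched. H2-K1, H2-D1 or another gene without a match may therefore still hold such an element.

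The upstream stretches of the 2 classical heavy chains and of B2m are shown because their values moved together and because the X2 core and the inverted Y box lie 20 bases apart in all 3, a spacing noticed after the matches were seen. It occurs in 25 of 27025 promoters (0.0925%), among them that of H2-M3, another class I heavy chain. Capitals mark the matches: the NF-kB element, the X2 core and the inverted Y box in H2-K1 (chr17:34000359-34000458, minus strand), the last 2 of these in H2-D1 (chr17:35262993-35263022, plus strand, inside an exon of the GENCODE annotation), and the IRF element, the inverted NF-kB element, the X2 core and the inverted Y box in B2m (chr2:122147548-122147638, plus strand).
H2-K1: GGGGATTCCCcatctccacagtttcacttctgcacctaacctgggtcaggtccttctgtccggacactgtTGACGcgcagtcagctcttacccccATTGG
H2-D1: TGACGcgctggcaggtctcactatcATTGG
B2m: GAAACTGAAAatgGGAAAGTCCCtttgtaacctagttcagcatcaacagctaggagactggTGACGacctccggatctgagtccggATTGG
From the NF-kB element to the inverted Y box, H2-K1 and H2-D1 were the same at 89 of 100 bases. These are matches of letters, and no binding was measured in these tumors.

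**Figure D2:**
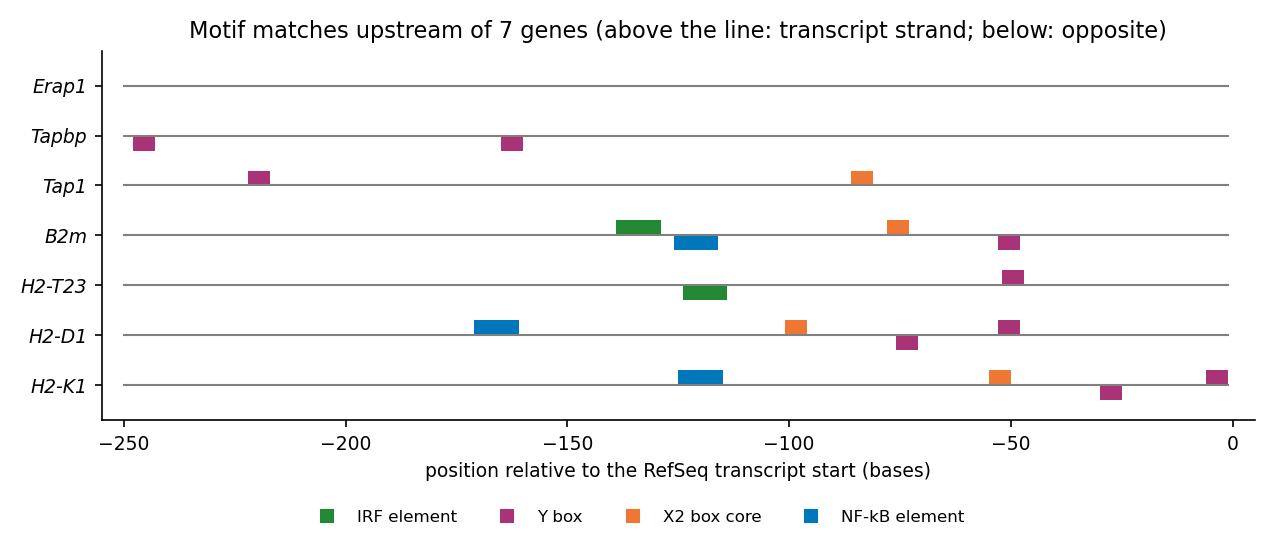
Matches of 4 motifs in the 250 bases before the RefSeq transcript start of 7 genes (x axis, bases relative to the start, with the downstream of the 2 H2-K1 starts shown; blocks above a line lie on the strand of the transcript and blocks below on the other). An orange X2 core is followed by a purple inverted Y box at 1 spacing in H2-K1, H2-D1 and B2m, and Erap1 has no block.

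Tap1 and Tap2 form the transporter that carries peptides into the endoplasmic reticulum. Tap1 (chromosome 17, 34187553 to 34197225, plus strand) read 3089, 2974, 1458 and 2613 in sgScramble tumors and 8878, 8650 and 9272 in sgKrt19 tumors. Its sgKrt19 values were close to each other, and sgScramble 3 lay well under the other controls. Its mean went from 2534 ± 745 to 8934 ± 314, the steepest rise among the 10 genes (log2 fold change 1.88, SE 0.227, interval 1.37 to 2.38, limma adjusted p = 0.000312). Tap2 (chromosome 17, 34203527 to 34216321, plus strand) read 1112, 1100, 820 and 1092 against 2411, 2248 and 2508. The groups were apart here too, and 3 of the 4 controls lay within a narrow range. Its mean rose from 1031 ± 141 to 2389 ± 131 (log2 fold change 1.22, SE 0.130, interval 0.93 to 1.51, limma adjusted p = 0.000164). The log2 ratio of Tap1 to Tap2 was 1.25 ± 0.295 in sgScramble and 1.90 ± 0.035 in sgKrt19 tumors, a difference of 0.65 without overlap (exact p = 0.0571, adjusted p = 0.114). Without sgScramble 3 the difference was 0.51.

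Some exon bases of both transporter genes lie opposite to exons of a neighbor: 3.87% of Tap1 opposite Psmb9, an immunoproteasome subunit that was itself higher, and 14.1% and 4.36% of Tap2 opposite the noncoding genes Gm15821 and Gm20496. Whether the counting kept the strands apart is not given in the sources used here, so reads from these bases cannot be assigned.

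Tapbp, or tapasin, holds empty heavy chains at the transporter, and its relative Tapbpl (TAPBPR) edits peptides on class I molecules away from it. Tapbp (chromosome 17, 33915899 to 33929292, plus strand) read 6279, 5881, 4974 and 5543 in sgScramble and 12099, 10422 and 12526 in sgKrt19 tumors. The controls were tight and the groups apart. The mean rose from 5669 ± 553 to 11682 ± 1112 (log2 fold change 1.04, SE 0.120, interval 0.78 to 1.31, limma adjusted p = 0.000238). An antisense gene, Gm19412, covers 24.9% of its exon bases on the other strand. Tapbpl (chromosome 6, 125223933 to 125231860, minus strand), outside the MHC, read 1235, 1028, 938 and 1043 against 1810, 1943 and 2042. It too did not overlap, and its mean rose from 1061 ± 125 to 1932 ± 116 (log2 fold change 0.87, SE 0.118, interval 0.61 to 1.13, limma adjusted p = 0.000577). The log2 ratio of Tapbpl to Tapbp fell by 0.17 in the mean, with overlap (exact p = 0.114, adjusted p = 0.190), and by 0.10 without sgKrt19 5.

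Erap1 trims the amino ends of peptides inside the endoplasmic reticulum. On chromosome 13 (74639568 to 74693201, plus strand), it read 2632, 2743, 2228 and 2739 in sgScramble tumors and 4260, 4049 and 3734 in sgKrt19 tumors. The groups were apart, and the fold was the smallest of the 10. Its mean rose from 2585 ± 244 to 4014 ± 264 (log2 fold change 0.64, SE 0.111, interval 0.39 to 0.89, limma adjusted p = 0.00218), and with scaling by library size the log2 fold change was 0.42 (adjusted p = 0.0176). Of its exon bases, 11.5% lie opposite exons of Cast, a calpain inhibitor with a mean value of 5120.

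Nlrc5 is the transactivator that drives transcription of class I genes through their X and Y box module. The gene (chromosome 8, 94434356 to 94527272, plus strand) read 1433, 2326, 719 and 2018 in sgScramble tumors and 2205, 3135 and 4259 in sgKrt19 tumors. Its spread was wide in both groups, and sgKrt19 5 lay below sgScramble 2. The means were 1624 ± 708 and 3200 ± 1029 (log2 fold change 1.06, SE 0.363, interval 0.25 to 1.86, limma adjusted p = 0.0461). This call was the least firm of the 10. It was lost with scaling by library size (adjusted p = 0.104), with DESeq2 on the recovered reads (0.0873) and without sgScramble 1 (0.0748), sgKrt19 6 (0.102) or sgKrt19 8 (0.154), and without sgScramble 3 the log2 fold change was 0.71 (adjusted p = 0.0487).

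**Figure D3:**
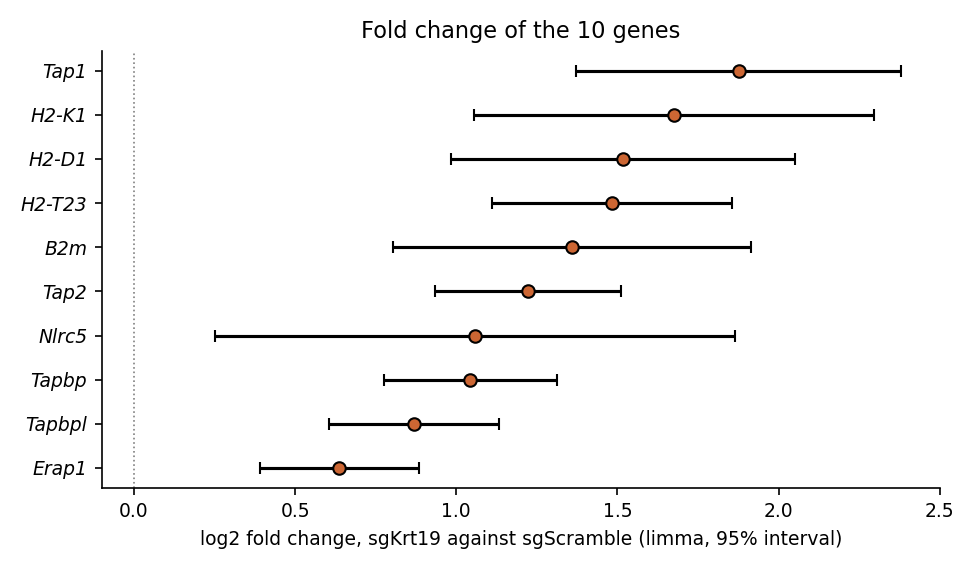
Log2 fold change (x axis, sgKrt19 against sgScramble, of the normalized read count plus 1) of the 10 genes with its 95% interval from limma, in order of size. All 10 intervals lie above 0, from Tap1 at 1.88 down to Erap1 at 0.64, and the interval of Nlrc5, 0.25 to 1.86, is the widest.

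Per kilobase of exon, the levels covered a wide range and their order was nearly the same in both groups. In sgScramble tumors B2m was highest with 58543 ± 17647 normalized reads per kilobase. H2-D1 (10798) and H2-K1 (10270) came next and overlapped each other, followed by H2-T23 (1670) and Tapbp (1563), which also overlapped. Tap1 (463) and Tapbpl (451) could not be ordered, and neither could Tap2 (273) and Nlrc5 (191), the lowest pair. By its mean, Erap1 (355) lay between these pairs. The range of Tap1 (266 to 564) also overlapped those of Erap1 (306 to 377), Tap2 (217 to 294) and Nlrc5 (84.6 to 274). In sgKrt19 tumors B2m stood at 144493 ± 10742 per kilobase, ahead of H2-K1 (31041) and H2-D1 (29762), the only neighbors whose ranges overlapped. Below them the order was H2-T23 (4629), Tapbp (3220), Tap1 (1631), Tapbpl (821), Tap2 (632), Erap1 (551) and Nlrc5 (377). Tap2 stood below Erap1 in the control tumors and above it in the edited ones. The kilobases count all annotated exons of a gene, which a given transcript need not contain.

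The spread within a group also differed. The coefficient of variation was 9.44% to 43.6% for the 10 genes in sgScramble and 3.52% to 32.2% in sgKrt19 tumors, and it was lower in sgKrt19 tumors for all 10, against 45.9% of tested genes. Without sgScramble 3 this held for 6 of the 10. Within the sgKrt19 group, tumor 6 was lowest for 7 of the 10 genes. The share of all tested genes lowest in that tumor was not computed, so the count cannot be read as a trait of these genes. Nlrc5 varied most in both groups.

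The level of the class I genes was also set against a leukocyte gene, since leukocyte markers were higher as well. Ptprc, which encodes the leukocyte antigen CD45, was higher by 1.19 on the log2 scale (limma adjusted p = 0.000518). That was the largest change among the 6 leukocyte markers, whose median was 0.76 and whose smallest was 0.65 (Laptm5). Ratios to the other markers of that list were not computed. The log2 ratio of B2m to Ptprc was 5.67 ± 0.452 in sgScramble and 5.83 ± 0.238 in sgKrt19 tumors, a difference of 0.17 with overlap (exact p = 0.514). Leaving out 1 tumor at a time gave 0.04 to 0.33, with 0.04 without sgScramble 3 or 4, 0.06 without sgKrt19 8, 0.27 without sgScramble 1, 0.30 without sgKrt19 6 and 0.33 without sgScramble 2. H2-K1 to Ptprc differed by 0.48, again with overlap (exact p = 0.343), and by 0.30 without sgScramble 3. Tap1 to Ptprc was 1.58, 1.81, 0.88 and 1.13 in sgScramble tumors and 1.97, 1.84 and 2.30 in sgKrt19 tumors. Its groups were apart, with sgScramble 2 and sgKrt19 6 close together, and differed by 0.69 (exact p = 0.0571, adjusted p = 0.114). Against Epcam, an epithelial gene that varied widely within both groups, the log2 ratio of B2m differed by 1.29 and overlapped (exact p = 0.343), and was 0.71 without sgScramble 3 and 0.66 without sgKrt19 8. The part of leukocytes and of cancer cells in the class I values was not tested.

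**Figure D4:**
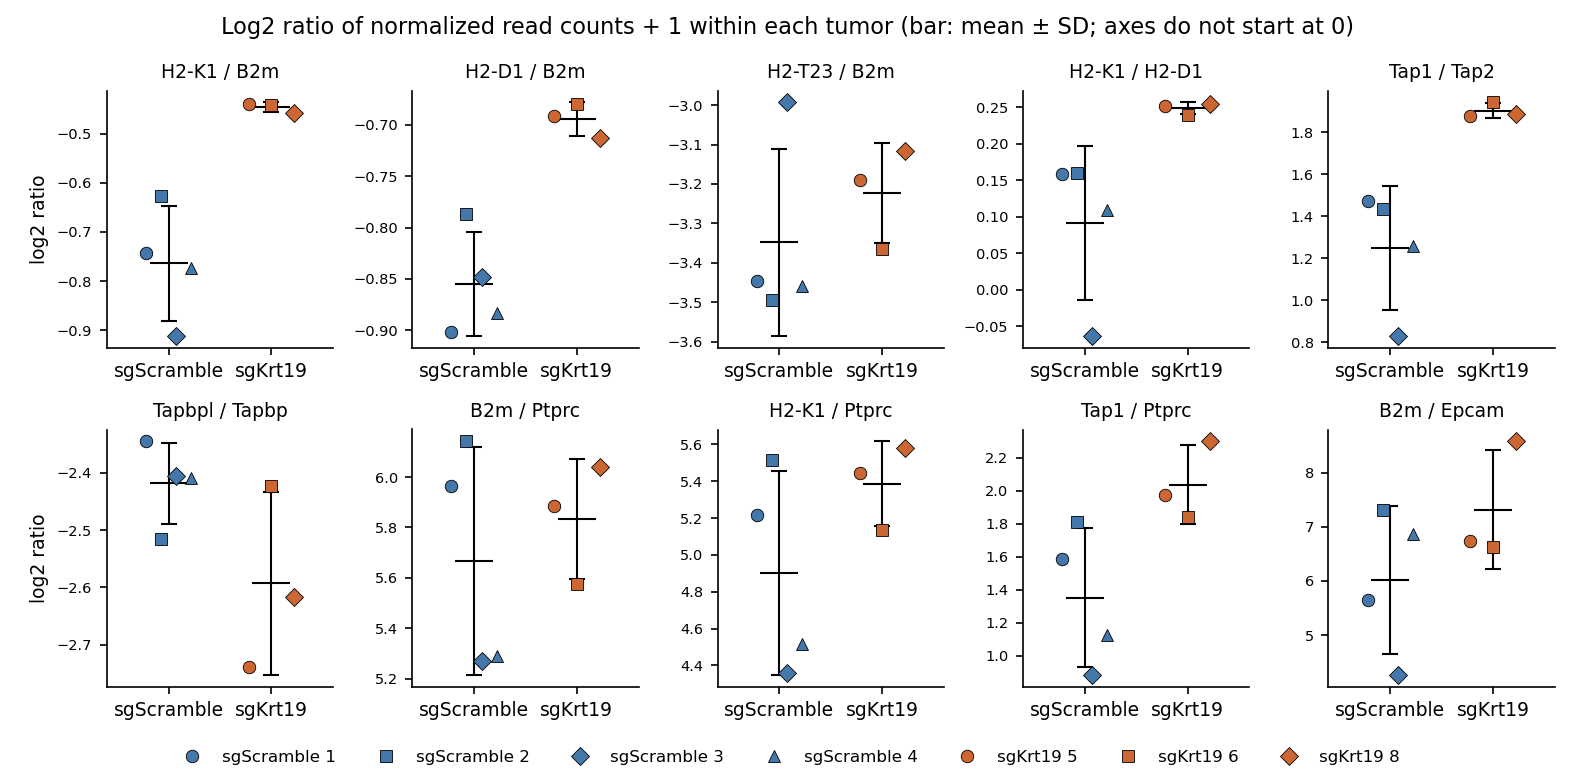
Log2 ratio of 2 normalized read counts, each plus 1, within each tumor (y axis, with a scale of its own in each panel that does not start at 0) for 10 pairs of genes; symbols are tumors as in the plot of values, and bars give the mean and SD. Groups are apart for H2-K1 to B2m, H2-D1 to B2m, H2-K1 to H2-D1, Tap1 to Tap2 and Tap1 to Ptprc, each with the smallest exact p the design can give, 0.0571, and overlap for the other 5.

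Most other heavy chain genes of the MHC were higher as well. Of 17 listed, 14 were tested, and 11 were higher and 2 lower (median log2 fold change 1.49, against 0.0072 over all tested genes, of which 34.0% were called either way). H2-Q6, a Qa-2 gene, read 3624, 3743, 1506 and 2877 in sgScramble tumors and 9713, 10198 and 10844 in sgKrt19 tumors (log2 fold change 1.89, limma adjusted p = 0.000738). Like the 3 heavy chains above it was lowest in sgScramble 3 and did not overlap. H2-M5, at 15.8 to 41.5 in sgScramble and 9.0 to 15.8 in sgKrt19 tumors, and H2-M2, at 50.4 to 101 against 31.0 to 51.5, were lower (log2 fold changes −1.29 and −0.86, limma adjusted p = 0.0281 and 0.0371). These 2 low genes lost their call in 5 of 15 and 7 of 16 alternative settings. H2-T24 did not pass (log2 fold change 0.59, limma adjusted p = 0.227), and H2-T3 and H2-M10.1 were at or under 3 reads.

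Genes of class I shape outside the MHC went in both directions. Of 7, 2 were higher and 4 lower, with a median of −0.52. The shares over all tested genes were 17.9% higher and 16.0% lower. Procr, the endothelial protein C receptor, was higher (log2 fold change 0.84, limma adjusted p = 0.00115), and so was Hfe, which regulates iron uptake (0.41, limma adjusted p = 0.0248). Hfe was not called with scaling by library size (adjusted p = 0.234). The lipid presenting genes Cd1d1 and Cd1d2 were lower, with changes of −0.86 and −1.30 on the log2 scale (limma adjusted p = 0.00157 and 0.00278). Cd1d1 read 309, 272, 331 and 332 in sgScramble tumors and 169, 179 and 165 in sgKrt19 tumors, without overlap. Mr1, which presents vitamin metabolites, and Fcgrt, the neonatal Fc receptor, were lower too (−0.72 and −0.52, limma adjusted p = 0.0187 and 0.0377), and Fcgrt lost its call in 6 of 16 settings. Most products of these genes pair with B2m, as the classical heavy chains do.

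The immunoproteasome makes many of the peptides that are loaded. All 5 immunoproteasome genes were higher, where 17.9% of all tested genes were called higher, with a median log2 fold change of 1.24. Psmb9, a catalytic subunit whose gene lies beside Tap1, read 1607, 1142, 580 and 892 in sgScramble and 3876, 3546 and 4023 in sgKrt19 tumors (log2 fold change 1.95, limma adjusted p = 0.000674), and Psme1, of the PA28 regulator, had the smallest change (0.75, limma adjusted p = 0.00223). Both were apart between the groups. Of 8 chaperone and glycan processing genes of the endoplasmic reticulum, Calr (0.54) and Uggt1 (0.33) were higher and Ganab (−0.34) was lower, with a median of 0.25. These 3 calls among 8 genes are near the 34.0% of all tested genes called, and with scaling by library size none of the 8 was higher and 2 were lower. The calls of Calr and Uggt1 were lost with scaling by library size (adjusted p = 0.0560 and 0.493), while those of Uggt1 and Ganab were lost in 9 and 8 of 16 settings. Among 6 other peptidases, Lap3, a cytosolic leucine aminopeptidase, was higher (0.73, limma adjusted p = 0.00164) and Npepps, the puromycin-sensitive aminopeptidase, lower (−0.67, limma adjusted p = 0.00139), with a median of 0.04 that became −0.17 with scaling by library size, a scaling that shifts the median of all genes to −0.21. These 2 calls among 6 genes are also near the 34.0% of all tested genes.

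**Figure D5:**
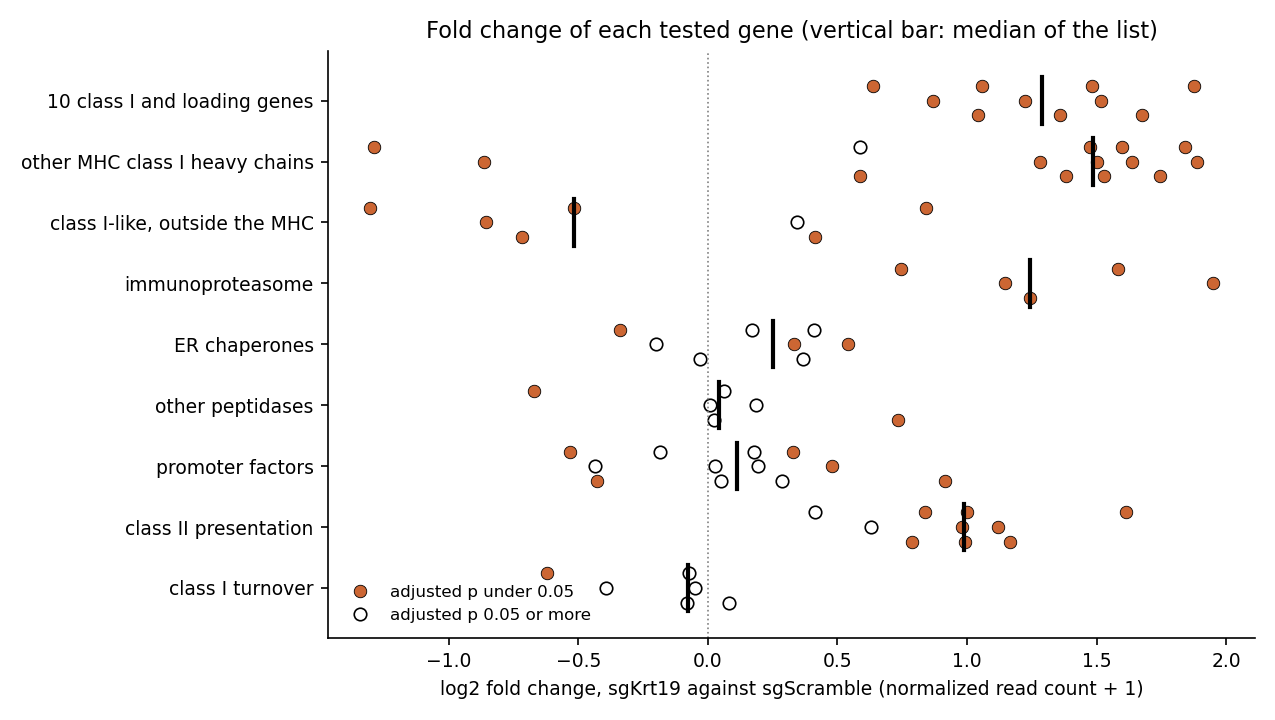
Log2 fold change (x axis, sgKrt19 against sgScramble, of the normalized read count plus 1) of every tested gene in the 10 class I and loading genes and 8 related lists; filled points passed the test, open points did not, and vertical bars are list medians. The 10 genes, the other MHC heavy chains (median 1.49), the immunoproteasome (1.24) and class II presentation (0.99) lie mostly right of 0, while chaperones (0.25), peptidases (0.04) and turnover genes (−0.08) center near 0.

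Transcription factors of class I promoters were mixed. Of 12, 3 were higher and 2 lower, and the median was 0.11. These counts are not far from the 17.9% and 16.0% of all tested genes called higher and lower. With scaling by library size 1 was higher and 4 lower, with a median of −0.10. Irf1, which acts downstream of interferon, read 4762, 5220, 3260 and 4498 in sgScramble and 7429, 8097 and 9261 in sgKrt19 tumors (log2 fold change 0.91, limma adjusted p = 0.00236). It was again lowest in sgScramble 3, and its groups did not overlap. The RFX subunits Rfxank (0.33) and Rfxap (0.48) were called higher, but not with scaling by library size (adjusted p = 0.444 and 0.130), and Rfx5 did not pass (−0.43, limma adjusted p = 0.0936), but was called lower with that scaling (−0.65, adjusted p = 0.0397). Nfya, of the NF-Y factor (−0.43), and Nfkb1 (−0.53) were lower (limma adjusted p = 0.0290 and 0.0145), and Nfya lost its call in 5 of 16 settings.

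Of 6 genes of interferon gamma signaling, 3 were higher and none lower, with a median of 0.34. The share called higher over all tested genes was 17.9%. Ifng itself read 40.9, 24.7, 22.8 and 29.7 in sgScramble and 187, 147 and 200 in sgKrt19 tumors, without overlap (log2 fold change 2.57, limma adjusted p = 9.67e-05). Ifngr1 (0.49) and the feedback inhibitor Socs1 (1.57) were higher (limma adjusted p = 0.0124 and 0.000198), and the kinase gene Jak1 did not pass (log2 fold change −0.06, limma adjusted p = 0.666). Ifngr1 was not called with scaling by library size (adjusted p = 0.0540).

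Class II genes, which serve antigen presenting cells, moved in the same direction. Of 10, 8 were higher and none lower (median 0.99), where 17.9% of all tested genes were called higher and 16.0% lower. They ran from H2-Oa at 1.61 to H2-Ob at 0.41, which did not pass (limma adjusted p = 0.287). Ciita, the class II counterpart of Nlrc5, read 402, 460, 269 and 539 in sgScramble and 509, 720 and 672 in sgKrt19 tumors. Its groups overlapped and it did not pass (log2 fold change 0.63, limma adjusted p = 0.0543), though it did with DESeq2 (adjusted p = 0.0335), without sgScramble 4 (0.0304) and without sgKrt19 5 (0.0497). All 6 lymphocyte receptors of class I or class I-like molecules were higher (median 2.24), against the same 17.9% of all tested genes. They ran from Klrk1, or NKG2D, at 1.93 to Cd8b1 at 3.29. Cd8a, a chain of the coreceptor that binds class I, read 242, 286, 77.6 and 107 in sgScramble and 1371, 1820 and 967 in sgKrt19 tumors (log2 fold change 3.11, limma adjusted p = 0.000557). Of 6 genes of class I turnover, none was higher and only Nbr1, an autophagy receptor, was lower (−0.62, limma adjusted p = 0.00664). Over all tested genes 34.0% were called either way. Wwp2 had a log2 fold change of 0.08 that became −0.14 with scaling by library size.

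The genes whose profile over the 7 tumors was most like that of a class I gene were sought by the Euclidean distance between log2 profiles centered on their mean, among 15227 genes with a mean value of at least 100. For H2-K1 these were H2-Q4 (distance 0.246), H2-D1 (0.276), H2-Q1 (0.296), Gm7030 (0.317) and Gm11127 (0.326). For Tap1 they were H2-Q6 (0.228), H2-Q7 (0.323), the interferon-inducible GTPase Igtp (0.347), H2-K1 (0.393) and the granzyme Gzmb (0.395). The nearest to Nlrc5 were Gm4951 (0.20), Gbp7 (0.356), Gvin1 (0.381), Gm4070 (0.384) and Gm43802 (0.434), with Gbp7 and Gvin1 encoding large interferon-inducible GTPases. No heavy chain was among the 5 nearest to Nlrc5. H2-K1, H2-D1, Gm7030 and several H2-Q genes share read-length stretches of sequence, and all profiles share the same 7 libraries. The difference between the groups was left in the profiles, so genes with a like fold change lie near each other. The 5 nearest to H2-K1 had log2 fold changes of 1.52 to 1.62, and those nearest to Nlrc5 0.94 to 1.15. Likeness within a group was not tested.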

How the data were processed

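RNA from 7 tumors was sequenced as single reads. The authors deposited 1 table of 38026 genes in which reads per gene had been divided by a size factor, so the deposited values are a signal. Whole reads (tolerance 0.01) were recovered for 100% of values in each library. In 1 library (sgKrt19 6) 1 read is worth 1.00. The labels name polyA RNA and the methods a total RNA kit. The build is mm10 per the submitters' notes, and the aligner, counter and annotation are not given in the sources used here. GENCODE M21 (GRCm38), which holds 37095 of the identifiers at an equal version, supplied positions. Replicates differed beyond counting error (chi-square per degree of freedom 17.2 to 74.2). The floor, 3 reads, equals a value of 2.74 to 3.47 and covers counting error only.

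Genes that reached 10 in 3 or more libraries entered limma 3.58.1 (lmFit, eBayes with trend) on log2(value + 1), a scale that understates changes of low genes, with Benjamini-Hochberg adjustment. edgeR 4.0.16 and DESeq2 1.42.0 on recovered reads, other pseudocounts, filters and scalings, a fold threshold (treat) and leaving out each library were alternatives. The code was tested on simulated data. The 10 genes and all lists were chosen with earlier results of these data known. Named from each list were its highest and lowest gene and those called against its majority, with Krt19, Ptprc, Epcam, Ifng, Irf1, Rfx5, Ciita and Cd8a. H2-T24, H2-T3, H2-M10.1, Hfe, Uggt1, Rfxank, Rfxap, Ifngr1, Socs1, Cd1d1, Mr1, Fcgrt, Eomes and Klrb1c were named after their values were seen. Some items are not reported here and were left out of the lists.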

Additional observations from a re-analysis of the deposited data

Results flagged for a closer look

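Among the 20 sets of 4 sgScramble values searched (10 genes and 10 ratios), a single tumor lay far from the others in 2, and chance gives about 1 in 20. Both were sgScramble 3. Its Tap2 value was 820, where the gap to the nearest tumor made up 0.931 of the range of the group. Its log2 ratio of H2-T23 to B2m was −2.99, with a gap of 0.902 of the range. Without this tumor the log2 fold change of Tap2 was 1.12 and the difference of that ratio was 0.24 (exact p = 0.1, the smallest that 3 against 3 can give).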

How the results depend on the processing

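Under 16 alternatives H2-K1, H2-D1, H2-T23, Tap1, Tap2 and Tapbp kept their direction and call. With a required change above 1.5-fold, 1336 genes were called in place of 7240 (728 higher, 608 lower), and the calls of B2m (1.36), Tapbpl (0.87), Erap1 (0.64) and Nlrc5 (1.06) were lost. Nlrc5 also lost its call with library size scaling (0.84) and DESeq2 (0.97), and its log2 fold change was 0.71 to 1.30 when each tumor was left out, with adjusted p from 0.0302 to 0.154. The cause was not tested. Library size scaling called 2177 genes higher and 5741 lower, against 3820 and 3420, and moved the median of all genes to −0.21. Leaving out a tumor gave 4861 to 7714 calls. No ratio changed direction. No paired analysis was possible because the groups share no replicate number. With 4 against 3 tumors the ratios cannot pass 0.05, and the effect of depth was not tested.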
